A study of Mus musculus with 3 samples.

Results

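Nkx2.2 occupancy was examined at the genes for collagens, laminins and integrins, the main fibrous and sheet-forming proteins of the extracellular matrix and their receptors on the cell. They were taken by name from the gene assignments of the deposited table of Nkx2.2 regions: every symbol that starts with Col and a digit, with Lama, Lamb or Lamc and a digit, or with Itga or Itgb and a further character. The table holds 37271 regions, of which 26342 have an assigned gene, and names 14473 genes. The rule finds 68 of these names, at 190 regions on 17 chromosomes, and 1 of the regions is assigned to 2 of the genes. There are 33 collagen, 10 laminin and 20 integrin genes. The other 5 names belong to proteins that are no member of these families. They are Col4a3bp, which encodes a ceramide transfer protein, Itgb1bp1, which encodes an integrin-binding adaptor, Itgb1bp3, a nicotinamide riboside kinase gene, Itgb3bp, a gene of a centromere protein, and Itgbl1, a gene of a secreted protein resembling integrin beta chains.

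The study mapped the homeodomain transcription factor Nkx2.2 by chromatin immunoprecipitation and sequencing (ChIP-seq) in cultured C57BL/6 mouse cells, with 1 library for each state. Oligodendrocytes (OLs) were made in culture from oligodendrocyte progenitor cells (OPCs) by taking PDGF-AA out of the medium and giving T3, a thyroid hormone, for 48 h at 40 ng/mL. OPCs were isolated with an antibody to PDGFRA from the cortices of mice at postnatal day 7 and kept dividing with 3 growth factors, which were PDGF-AA (10 ng/mL), CNTF (10 ng/mL) and NT-3 (1 ng/mL). Each library is listed with 1.5e7 cells and the same monoclonal Nkx2.2 antibody, and an input library was not used here. The labels give no genetic change in either state. All cells were expanded in culture, and the OLs are cells differentiated ex vivo.

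Collagens are trimers that form fibrils, networks and basement membranes, and laminins are trimers of an alpha, a beta and a gamma chain that lay down the basement membrane sheet. Integrins pair an alpha with a beta chain and carry contact with this matrix into the cell. In the oligodendrocyte lineage, alpha6 beta1 integrin binds laminin and supports survival and myelination, and loss of the laminin alpha2 chain impairs the white matter in mice and people. The alpha v chain is known to change its beta partner as the cells mature. Nkx2.2 is expressed in OPCs and early in their differentiation, where it acts as a repressor of Pdgfra. Occupancy is not expression, and the files hold no RNA from these cells, so neither the expression of these genes nor the identity of the cells can be read from them.

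All values are the deposited average signal of a region, which is per position and so does not grow with the length of a region, on the scale the authors left it. The log2 ratio is log2((OL + 1) / (OPC + 1)) of that signal. With 1 library per state no difference between OL and OPC has a replicate check and no test was possible. Sequencing depth is unknown, and neither library has a value between 0 and 1, so an average of 1.00 is the lowest that a region with any signal can have. Of the 190 regions, 2 are listed at 0 in OL and 9 are in OPC, where all regions with an assigned gene have 0.642% in OL and 5.55% in OPC. Another 1 in OL and 18 in OPC stand at 1.00. Whether the average counts positions without reads is not stated, so ratios of weak regions are uncertain. The median region was 590 bp long, the shortest 243 bp and the longest 1841 bp. Coordinates are those of the deposited table, whose build is mm9 per the submitters' processing notes. The table places a region in, upstream or downstream of a gene and does not say whether it lies in an exon or an intron.

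Most of the collagen, laminin and integrin regions were called in OL, and the group as a whole stood where the other genes stood. OL calls covered 167 of the 190 regions, or 87.9% (95% interval 82.4 to 92.2%, exact binomial, for counting error over regions only), against 87% of all 26342 regions with an assigned gene. OPC calls covered 77, or 40.5% (33.5 to 47.9%), against 37.7%. Of the 190, 113 were called in OL only, 23 in OPC only and 54 in both, which is 59.5%, 12.1% and 28.4% of them, and the same classes take 62.3%, 13% and 24.8% of all regions with a gene. The median signal was 5.13 in OL against 3.27 in OPC, beside 5.18 and 3.07 over all regions with a gene.

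The signal ratios likewise lay close to the background. The median log2 ratio was 0.70 over the 190 regions and 0.74 over all regions with an assigned gene. A ratio of 1 or more was found at 64 regions, 33.7% of them against 36.5% of all regions with a gene. A ratio of -1 or less was found at 13, or 6.84% against 5.65%. With the median of all regions set to 0, which subtracts 0.74 everywhere, 23 and 27 regions pass these limits, so which side holds more depends on how the libraries are scaled. The ratio was above 0 at 152 regions, or 80% against 79.6% of all regions with a gene. With the median of all regions at 0 it was above 0 at 92 and below at 98, so every statement here that a gene had more OL or OPC signal is on the deposited scale. The quartiles were 0.17 and 1.23.

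By gene, 64 of the 68 names had a region called in OL and 40 one called in OPC, which is 94.1% and 58.8% of them. Over all 14473 gene names the shares were 94.8% and 57.3%. Both states had a call at 36 genes, 28 genes had calls in OL only and 4 in OPC only. Those 4 are Col4a4, Col1a2, Itga11 and Itgb6, and genes with OPC calls alone make up 5.24% of all names, those with OL calls alone 42.7%. A single region was held by 23 of the 68 genes, and by 44.6% of all names. The median gene held 2.5 regions against 2 over all names, the most being 13 at Itga9, 10 at Col9a1, 8 at Col19a1, 7 each at Col16a1 and Lamc1 and 6 at Col27a1. A further 20 genes of these name families in RefSeq had no region under their name in the table used here, among them Col3a1, Col4a1, the Col6a1 and Col6a2 pair, Lama3, Itgb2 and Itgb4.

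**Figure D1:**
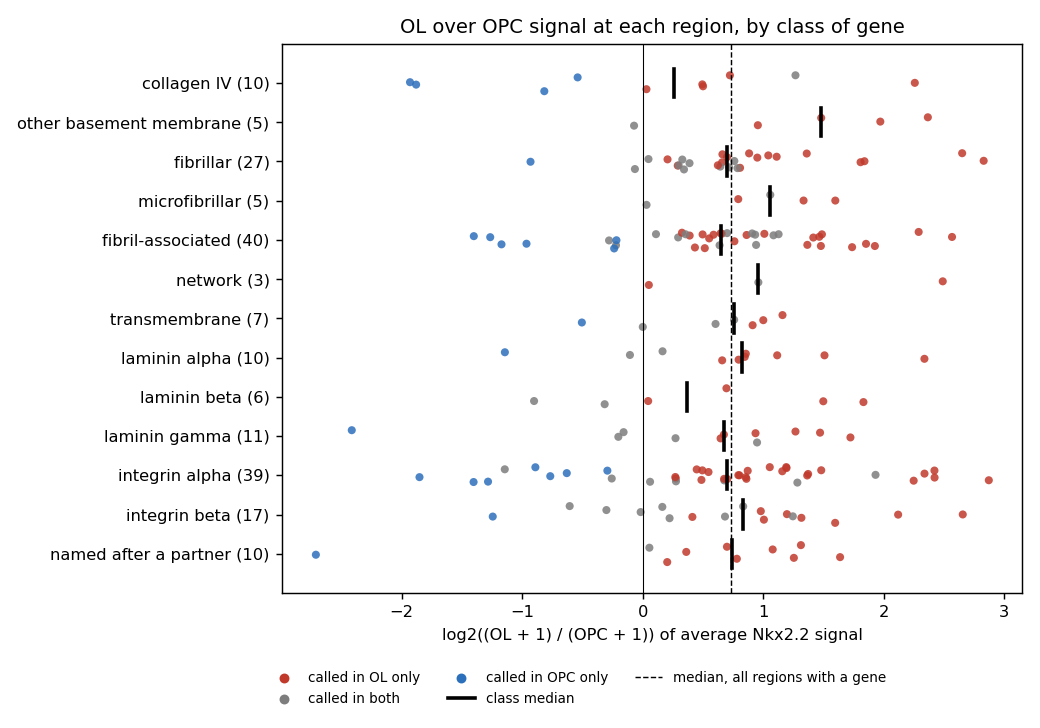
Log2 ratio of OL over OPC average signal at each region (x axis), by class of gene with the number of regions in brackets; points are coloured by the library that called the region, solid bars are class medians and the dashed line is the median of 0.74 over all regions with a gene. Collagen IV regions fall on both sides of 0, with a class median of 0.26, and the other classes lie mostly to the right of it.

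The families were alike in their medians and differed in single genes. The median log2 ratio was 0.70 over 97 collagen regions, 0.69 over 27 laminin regions and 0.75 over 56 integrin regions, and 0.74 over the 10 regions of the 5 other names. OPC-only calls made up 12 of the collagen, 2 of the laminin and 8 of the integrin regions. These are 12.4%, 7.41% and 14.3% of them, against 13% of all regions with a gene. Among the collagen classes the median was 0.26 over 10 collagen IV regions and 1.48 over the 5 regions of the other basement membrane collagens. It was 0.70 over 27 regions of fibrillar collagens and 0.65 over 40 regions of the collagens that bind to fibrils. Of the 27 fibrillar regions 26 were called in OL, or 96.3% against 87% of all regions with a gene. No test separates these classes, and the smaller ones rest on a few regions of 2 or 3 genes.

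Collagen IV is the network collagen of basement membranes, and its genes stand in head-to-head pairs that share a start. The table names Col4a2, Col4a3 and Col4a4, and they differed sharply. Col4a4 had 4 regions, every one called in OPC and not in OL. At chr1:82473034-82474000, 109850 bp into the gene, its signal was 2.77 in OL against 12.9 in OPC, a log2 ratio of -1.88, and this was the second highest OPC value of the 190 regions. At chr1:82552330-82552665, 30870 bp into the gene, it was 1.33 in OL against 7.90 in OPC, a log2 ratio of -1.93. The remaining regions had 2.00 in OL against 4.29 in OPC, 821 bp from the last one, and 2.50 in OL against 4.09 in OPC downstream of the gene, where Rhbdd1 is also assigned.

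Its partner Col4a3 was called in OL only, as 42.7% of all gene names are, with log2 ratios of 0.72, 0.50 and 0.49 that lie below the median of all regions. The starts of both genes, as the deposited distances place them, lie 184 bp apart and face away from each other, and no region of either gene lies nearer to its own start than 29639 bp. The 3 regions of Col4a3 had 3.77 in OL against 1.89 in OPC, 4.50 in OL against 2.89 in OPC, and 6.67 in OL against 4.44 in OPC. The last of these lies 137828 bp downstream, within 114 bp of the start of 5230400G24Rik. Of the 2383 gene names with at least 4 regions, Col4a4 was the 1 name, 0.042%, whose regions were all called in OPC only. It was singled out after its values were seen.

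Col4a2, which encodes the partner chain of the main collagen IV trimer, was on the OL side. Its strongest region, at chr8:11335934-11336905 and 23395 bp into the gene, had 17.2 in OL against 2.81 in OPC, a log2 ratio of 2.26, and was called in OL only. A region 49227 bp in had 11.3 in OL against 4.12 in OPC and was called in both. Its neighbour 674 bp further on had 4.17 in OL against 4.06 in OPC. The log2 ratios of this close pair were 1.27 and 0.03, a difference that no replicate checks.

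Of the remaining basement membrane collagens, Col18a1 and Col15a1 had more OL signal. Col18a1, whose product carries the endostatin fragment, had 3 regions called in OL only, and the strongest had 12.2 in OL against 2.37 in OPC (log2 ratio 1.97). The one 49214 bp into the gene had 4.15 in OL and was listed at 0 in OPC. Col15a1 had 5.78 in OL against 1.43 in OPC at its single region, while Col7a1, the anchoring fibril collagen, had 5.18 in OL against 5.50 in OPC at a region within 164 bp of the start of Pfkfb4.

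Fibrillar collagens held several of the strongest collagen regions, with calls in both states. Col11a1, a minor chain that sets fibril width in cartilage, had 18.1 in OL against 11.2 in OPC at chr3:113802158-113802862, 69052 bp into the gene, and all 4 of its regions had more OL signal. Col27a1 had 6 regions, all called in OL and 3 also in OPC. They ranged from 4.60 in OL against 3.86 in OPC to 14.5 in OL against 8.42 in OPC, and one 9555 bp upstream had 13.1 in OL against 10.5 in OPC. Its largest ratio, 1.84, was at a region with 11.9 in OL against 2.62 in OPC. Col5a3 had 11.9 in OL against 12.5 in OPC at its highest region, while Col5a1 had 9.64 in OL against 5.29 in OPC. The genes of collagen I, the main fibril collagen of connective tissue, had 1 weak region each. Col1a1 had 3.91 in OL against 2.19 in OPC, with a call in OL only, and Col1a2 had 2.00 in OL against 4.72 in OPC, with a call in OPC only.

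Among the collagens, those that sit on fibrils included the genes with the most regions. Col9a1 and Col19a1 are neighbours on chromosome 1 and share the region at chr1:24255726-24256363, with 5.53 in OL against 6.92 in OPC. Col9a1 had 10 regions, 8 called in OL and 6 in OPC. Its highest had 10.9 in OL against 4.61 in OPC (log2 ratio 1.08), and 3374 bp from it another had 2.32 in OL against 6.47 in OPC (-1.17) with a call in OPC only. Of the 8 regions of Col19a1, OL calls took in 5 and OPC calls 6, and their log2 ratios averaged 0.09. Within it, a region with 9.79 in OL against 9.0 in OPC stood 143 bp from one with 1.00 in OL against 4.29 in OPC. Both genes thus held regions of either direction. Col16a1 had 7 regions, all called in OL, and its highest had 10.6 in OL against 6.47 in OPC. Col20a1 had 11.8 in OL against 5.72 in OPC near its start and 9.48 in OL against 1.14 in OPC further in, a log2 ratio of 2.29. The highest region of the microfibrillar Col28a1 had 12.2 in OL against 5.33 in OPC.

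The 18 other collagen names, Col12a1, Col13a1, Col14a1, Col15a1, Col17a1, Col1a2, Col22a1, Col23a1, Col24a1, Col25a1, Col2a1, Col5a2, Col6a3, Col7a1, Col8a1, Col8a2, Col9a2 and Col9a3, and Itgbl1 had at most 11.6 in OL against 6.79 in OPC at their highest region. At that highest region a log2 ratio of 1 or more was found for 9 of these 19 names and of -1 or less for 0, where 34.7% and 4.19% of all gene names pass these limits. Counting any of their regions, 12 of the names reach 1 and 0 reach -1, and this count was not made over all gene names. The 19 names are those left by the naming rule given below. That rule had already taken genes with each library's strongest regions and, among stronger regions, the largest ratios each way. Counts at 1 and at -1 are thus those of a selected set, and the 0 at -1 does not set these names apart. The largest ratio was that of Col24a1, with 6.11 in OL and a listing at 0 in OPC.

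Laminin genes were called in OL at all 10 names and in OPC at 5, where 94.8% and 57.3% of all gene names were. Laminin alpha2 beta1 gamma1 is the trimer known to act on oligodendrocytes. Its alpha2 and beta1 genes had a log2 ratio of 1 or more at their highest region, as 34.7% of all gene names do. Its gamma1 gene had 0.95 there, and 3 of its 7 regions reach 1. Lama2, the alpha2 gene, had 14.2 in OL against 2.00 in OPC at chr10:27231587-27232520, 104695 bp into the gene, a log2 ratio of 2.34 with a call in OL only. Its other 3 regions were weaker, from 3.91 in OL against 1.71 in OPC to 5.36 in OL against 2.67 in OPC, and the one called in both had 4.48 in OL against 4.90 in OPC. The beta1 gene, listed as Lamb1-1, had 3 regions called in OL only, of which the highest had 10.8 in OL against 3.17 in OPC (1.5). Lamc1, the gamma1 gene, had 7 regions called in OL, 3 of them also in OPC. They reached 9.20 in OL against 4.29 in OPC at 58936 bp into the gene, and the mean log2 ratio over the 7 was 0.92.

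Lamb3, which encodes the beta3 chain of epithelial laminin, had more OPC signal. Its values were 5.63 in OL against 11.4 in OPC at chr1:195164435-195165144 (log2 ratio -0.90) and 4.67 in OL against 6.06 in OPC at its other region, both called in both states. Camk1g is assigned to the stronger Lamb3 region too.

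Of the other laminins, Lama4, a gene of vascular laminins, held both directions. It had 4.69 in OL against 1.00 in OPC at 39900 bp into the gene, a log2 ratio of 1.51 with a call in OL only. At 58056 bp it had 3.00 in OL against 7.84 in OPC, a log2 ratio of -1.14 with a call in OPC only. The region 508 bp before its start was close to level, with 8.42 in OL against 7.41 in OPC (0.16). Lama1, the alpha chain of the earliest embryonic laminin, had 5.50 in OL against 2.00 in OPC, Lama5 had 4.95 in OL against 2.31 in OPC, and Lamc3 had 4.92 in OL against 2.79 in OPC. These 3 genes were called in OL only. Lamb2 had 4.04 in OL against 3.89 in OPC at a single region, which lies 34 bp from the start of Usp19.

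**Figure D2:**
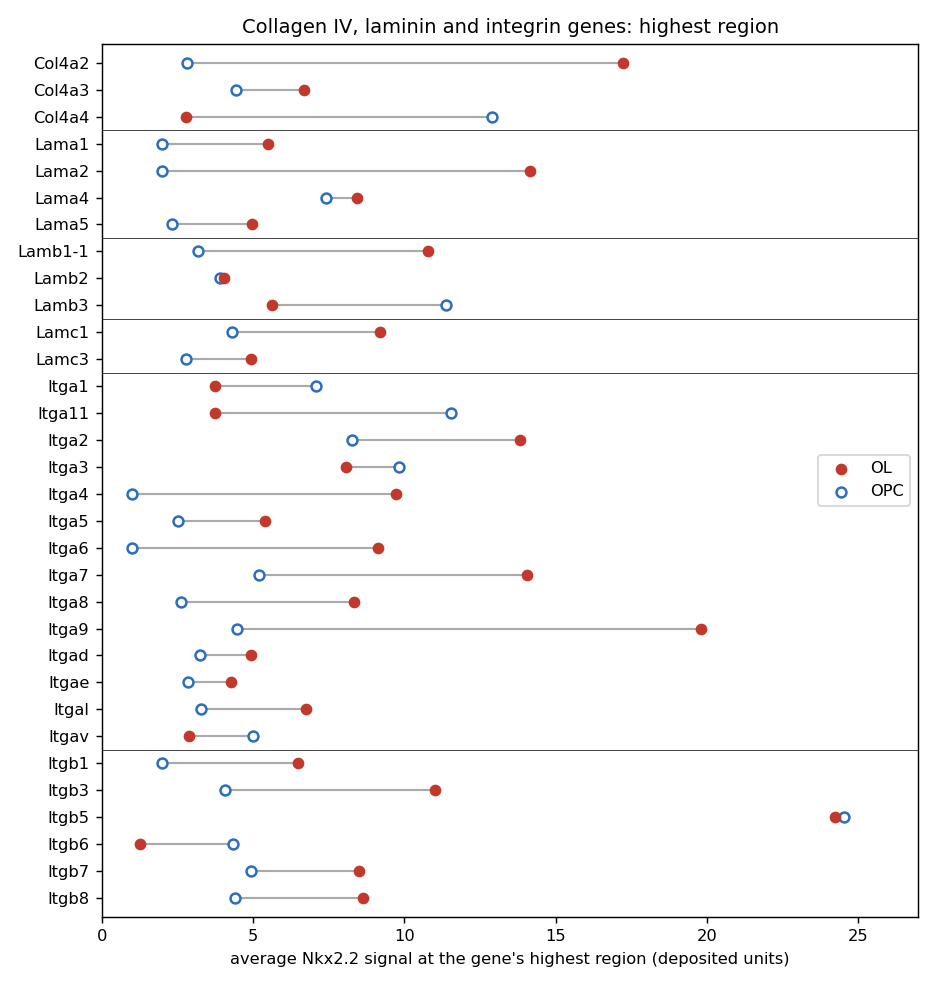
Average Nkx2.2 signal (x axis, deposited units) in OL (filled) and in OPC (open) at the highest region of the collagen IV, laminin and integrin genes named in the text, 1 library per state; lines within the plot separate the classes. Itgb5 stands alone at 24.2 in OL against 24.5 in OPC, and the open point lies to the right at Col4a4, Lamb3, Itga11 and Itgb6, among others.

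Integrin beta genes included the strongest region of all 190. At chr16:33941096-33941933, 111669 bp into Itgb5, the signal was 24.2 in OL against 24.5 in OPC, a log2 ratio of -0.02, and it ranked 227 in OL against 110 in OPC among all 37271 regions. Another 2 regions of Itgb5 were called in both states, with 5.0 in OL against 8.14 in OPC and 3.87 in OL against 5.0 in OPC. The fourth, 105202 bp in, had 5.18 in OL against 3.64 in OPC. Itgb5 encodes an alpha v partner that is known to appear late in the lineage. Its strongest region was close to equal in the deposited signal of the 2 libraries, which lies below the median log2 ratio of 0.74.

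The other partners of alpha v had more OL signal, except Itgb6. Itgb3 had 11.0 in OL against 4.06 in OPC at a region 8465 bp upstream (log2 ratio 1.25), with all 3 of its regions called in OL. Itgb8 had 8.63 in OL against 4.41 in OPC at its highest region and 7.69 in OL against 1.00 in OPC at 48902 bp into the gene, a log2 ratio of 2.12. Itgb1, the beta chain shared by most matrix receptors, had 3 regions called in OL only. They had 4.96 in OL against 1.6 in OPC at the start, 3.93 in OL against 1.5 in OPC 396 bp from it, and 6.47 in OL against 2.00 in OPC in the gene. Itgb6, an epithelial beta chain, had 1.25 in OL against 4.33 in OPC at its 1 region. Itgb7, a leukocyte chain, had 8.49 in OL against 4.91 in OPC downstream of the gene, and its other regions had more OL signal as well. Itgav itself had 4.44 in OL against 1.39 in OPC at its start, and 2.88 in OL against 5.0 in OPC at 17894 bp into the gene.

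Among the laminin-binding alpha chains, Itga6 and Itga7 stood on the OL side. Itga6, the laminin receptor chain of oligodendrocytes, had 9.11 in OL against 1.00 in OPC at chr2:71618020-71618605, 6828 bp upstream, a log2 ratio of 2.34, and 3.57 in OL against 1.00 in OPC at its start. Both were called in OL only. Itga7, the main laminin receptor chain of muscle, had 14.0 in OL against 5.18 in OPC at 17840 bp into the gene (1.28). Itga3 had 8.06 in OL against 9.83 in OPC at a region that lies 413 bp from the start of Pdk2, while its other 3 regions had more OL signal and were called in OL only.

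The collagen-binding alpha chains were mixed. Itga2 had 13.8 in OL against 8.27 in OPC at a region of 1543 bp, where Mocs2 is also assigned. Itga11 had 3.73 in OL against 11.5 in OPC at chr9:62630795-62631417, 105438 bp into the gene, a log2 ratio of -1.40 with a call in OPC only, and Fem1b is assigned there too. Itga1 had 3.75 in OL against 7.09 in OPC at 64500 bp into the gene, but was 4.36 in OL and listed at 0 in OPC at 4671 bp, where Pelo is also assigned. So 2 of these 3 genes had their highest region on the OPC side, a share that was not counted over all gene names. At Itga1 the mean log2 ratio over its regions was 0.83, on the OL side.

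Itga9 held the most regions, and they lay on both sides. It encodes the alpha9 chain, a receptor for tenascin-C. Its highest region, chr9:118628274-118629138, 112879 bp into the gene, had 19.8 in OL against 4.46 in OPC (log2 ratio 1.93). Past the end of the gene, at chr9:118810791-118811369, the signal was 2.27 in OL against 10.8 in OPC (-1.85), and LOC100039768 is also assigned there. At 212034 bp into the gene it was 3.68 in OL against 9.36 in OPC (-1.15). OL calls lay at 10 of the 13 regions and OPC calls at 7, and their log2 ratios ran from -1.85 to 2.25 with a mean of 0.29. Over all 190 regions the ratios ran from -2.71 to 2.87.

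Of the remaining alpha chains, Itga4, which pairs with beta1 or beta7, had 3 regions called in OL only. The highest, chr2:79163755-79164309, had 9.71 in OL against 1.00 in OPC, a log2 ratio of 2.42, and Cerkl is assigned there too. Itga8, an RGD-binding chain, had 8.33 in OL against 2.63 in OPC at its highest region and 2.2 in OL against 6.79 in OPC at 59191 bp into the gene, so it also held both directions. Itga5, the fibronectin receptor chain, had 5.40 in OL against 2.50 in OPC. The leukocyte chains had a single region each, with 6.75 in OL against 3.29 in OPC at Itgal, 4.93 in OL against 3.23 in OPC at Itgad, and 4.25 in OL against 2.85 in OPC at Itgae. These were called in OL only, and that of Itgae lies 51 bp from the start of Gsg2.

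**Figure D3:**
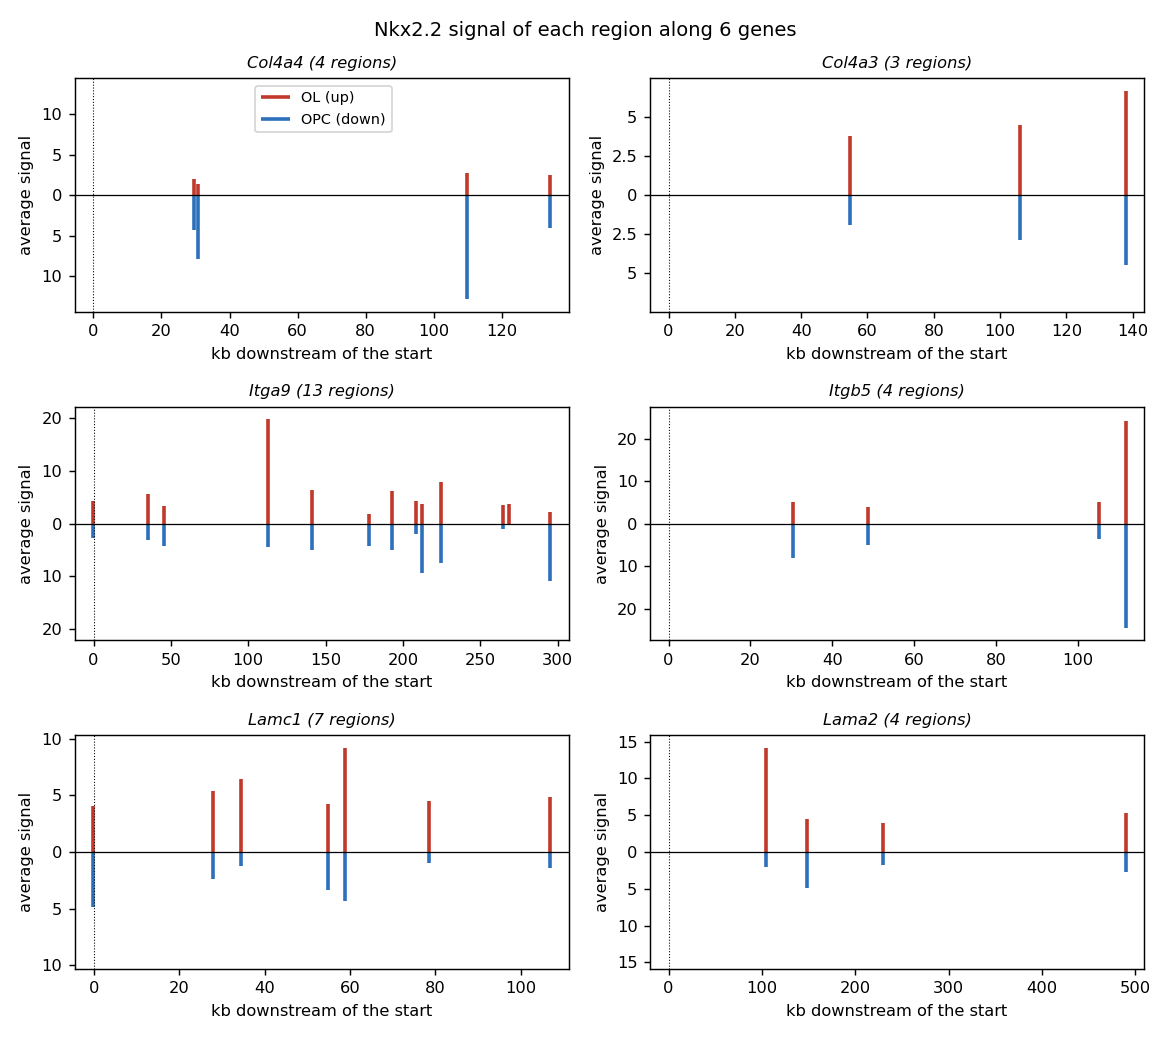
Average signal of each region in OL (bars up) and in OPC (bars down, same scale) against its distance in kb from the gene start (dotted line) along Col4a4, Col4a3, Itga9, Itgb5, Lamc1 and Lama2; vertical scales differ between genes. Col4a4 has its longer bars in OPC at each region and Col4a3 in OL, while Itga9 has both kinds.

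Both directions, a region at 1 or more and another at -1 or less, were found in 6 genes: Col9a1, Col19a1, Lama4, Itga8, Itga9 and the ceramide transfer gene Col4a3bp. In the last, the start had 8.00 in OL against 3.26 in OPC, and a region 51093 bp into the gene was listed at 0 in OL and had 5.56 in OPC. Of the 16 genes with at least 4 regions, 6 had every ratio on one side of 0, the 5 collagen genes Col11a1, Col14a1, Col24a1, Col27a1 and Col28a1 above it and Col4a4 below. Between neighbouring regions at most 5 kb apart, 24 pairs in all, the calls were the same in 16 and the sign of the ratio in 18, and the ratios lay 0.98 apart at the median. None of these counts was made over all gene names, so they do not set these genes apart from others.

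The 190 regions lay mostly inside genes and seldom at the starts of these genes. A region's middle was within 1 kb of a member's start at 17 regions, or 8.95%. Over all regions with a gene 25.1% lay so near a start, but of any gene assigned to them. Another 12 of the 190 lay so near the start of a different gene only, so these shares are not alike in measure. Placed by the member gene, 143 other regions, or 75.3%, lay in a gene, 16 farther upstream and 14 downstream. Over all regions with a gene, placed by any assigned gene, 59.5% lay in a gene. CpG islands were held by 23 regions, 12.1% against 24.4% of all regions with a gene. Such a difference in position was not tested, and gene lengths were not compared. Inside genes the share called in OPC only was 14.3% of 14 regions between 1 and 10 kb from the start, 15.3% of 59 between 10 and 50 kb, 13.3% of 30 between 50 and 100 kb and 15.0% of 40 farther in, close to level over distance.

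The 17 start regions were all called in OL and 4 were also called in OPC, where of all 6614 regions within 1 kb of a start 92.9% were called in OL and 40.6% in OPC. Those 4 stood at Col16a1, Lama4, Lamc1 and Itgb3bp. The median signal over the 17 was 4.93 in OL against 2.78 in OPC, and 11 of the 17 held a CpG island, as did 83.3% of all regions near a start. Among the collagens, the start of Col16a1 had 5.29 in OL against 6.33 in OPC and that of Col9a1 had 4.92 in OL and was listed at 0 in OPC. Those of Col11a1, Col11a2, Col1a1 and Col5a1 had 3.91 to 6.42 in OL and 2.19 to 3.57 in OPC. The starts of Lamc1, with 4.10 in OL against 4.86 in OPC, and of Col16a1 were the 2 with less OL signal. At the start regions of the partner-named genes the values were 4.58 in OL against 2.25 in OPC at Itgb1bp1, 5.22 in OL against 1.00 in OPC at Itgb1bp3, and 4.52 in OL against 4.32 in OPC at Itgb3bp.

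**Figure D4:**
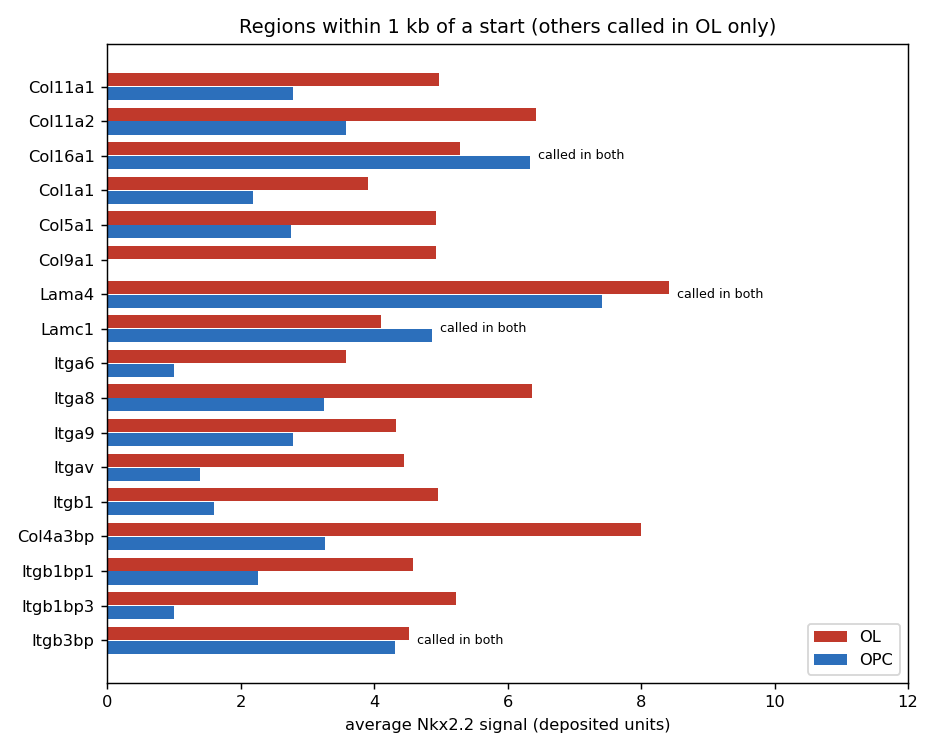
Average Nkx2.2 signal (x axis, deposited units) in OL and in OPC at the 17 regions within 1 kb of a gene start, 1 library per state, ordered as collagen, laminin, integrin and partner-named genes; no bar is drawn for Col9a1 in OPC, which is listed at 0. OL bars are the longer ones except at Col16a1 and Lamc1.

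The 250 bases before a RefSeq start are shown for Itga8, Itga9, Itgav and Itgb1, since these receptor chain genes were each called at their start in OL only. Itga6 is the other integrin gene with such a start. Promoters were matched by gene name, and whether a printed start is the one with the region was not checked. They are RefSeq sequences of build GRCm38.p6, a later build than that of the regions, with capitals marking AAGTG, the core of sites bound by NK-2 homeodomain proteins, or its reverse complement CACTT.
Itga8, chr2:12301945-12302194, minus strand: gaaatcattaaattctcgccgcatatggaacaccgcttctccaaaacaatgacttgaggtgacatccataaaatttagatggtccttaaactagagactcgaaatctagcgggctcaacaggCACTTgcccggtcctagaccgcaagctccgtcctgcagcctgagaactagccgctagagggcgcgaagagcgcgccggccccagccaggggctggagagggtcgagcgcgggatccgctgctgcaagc
Itga9, chr9:118711442-118711691, plus strand: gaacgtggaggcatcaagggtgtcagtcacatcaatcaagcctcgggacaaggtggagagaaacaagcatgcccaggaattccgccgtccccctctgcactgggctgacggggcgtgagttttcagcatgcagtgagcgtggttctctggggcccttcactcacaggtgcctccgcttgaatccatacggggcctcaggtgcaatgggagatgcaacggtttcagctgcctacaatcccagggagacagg
Itgav, chr2:83724147-83724396, plus strand: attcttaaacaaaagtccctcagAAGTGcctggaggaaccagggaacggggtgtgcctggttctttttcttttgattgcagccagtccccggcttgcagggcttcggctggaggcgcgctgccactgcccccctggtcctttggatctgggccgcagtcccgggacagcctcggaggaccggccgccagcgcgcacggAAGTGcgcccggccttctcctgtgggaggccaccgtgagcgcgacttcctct
Itgb1, chr8:128685404-128685653, plus strand: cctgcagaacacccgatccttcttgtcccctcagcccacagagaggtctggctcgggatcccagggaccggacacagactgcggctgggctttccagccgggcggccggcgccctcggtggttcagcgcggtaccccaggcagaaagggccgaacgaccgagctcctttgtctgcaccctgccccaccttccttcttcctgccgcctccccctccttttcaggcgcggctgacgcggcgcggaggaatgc

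The start regions of these genes had 6.36 in OL against 3.25 in OPC at Itga8, 4.33 in OL against 2.79 in OPC at Itga9, 4.44 in OL against 1.39 in OPC at Itgav, and 4.96 in OL against 1.6 in OPC at Itgb1. The core was found 2 times before Itgav, 1 time before Itga8 and not before Itga9 or Itgb1, in these letters of this window. Over all 32851 promoters of the table used here, 40.7% hold it in the same window, and 37.3% of the 6696 promoters of genes with a region within 1 kb of their start. Of the 17 genes with a start region, 13 matched a promoter sequence, with 14 promoters, and 4 of these hold the core. The 14 include 2 promoters of Col9a1 at separate starts, of which 1 holds the core. Which of them lies by the region was not checked. A longer NK-2 consensus was present in 1 of the 14, that of Itga8, and in 3.52% of all promoters. A match is a description of letters and not a site.

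Some regions counted here lie at the start of another gene. Of the 190, 14 had their middle within 1 kb of a start of a gene outside the families, 2 of these also at a member's own start. Besides those already given they include the region of Col8a2, with 11.4 in OL against 5.37 in OPC, 5 bp from the nearest start among Adprhl2 and Tekt2, and one of Col16a1, with 8.21 in OL against 3.91 in OPC, 50 bp from that of Pef1. The 12 that rest on another gene's start alone had a median log2 ratio of 0.47 and none past 1 in either direction. All 6614 regions within 1 kb of a start had a median of 0.60, with 19.8% at 1 or more and 1.54% at -1 or less. A count over 12 regions does not set them apart from other start regions, and this was not tested. In all, 49 regions list 2 or more genes, 25.8% against 23% of all regions with a gene. Among them are the highest regions of Lamb1-1, Itga5, Itga7, Itgb7 and Col20a1. Which gene such a signal belongs to cannot be told, and the 141 that list a single gene had the same median log2 ratio of 0.70.

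Genes that work with these proteins were read from lists, and their counts stand beside the shares of 94.8% with an OL call and 57.3% with an OPC call over all gene names. Of 14 matrix and basement membrane partners 12 had a region, all 12 with an OL call and 9 with an OPC call. Their highest regions had a median log2 ratio of 0.74, beside 0.77 for the 68 names and 0.73 over all gene names, with 6 at 1 or more and 0 at -1 or less. Over all gene names these limits are passed by 34.7% and 4.19%, and among the 68 names by 25 and 3. Utrn, the gene of utrophin, which links dystroglycan to the cytoskeleton, had 35.3 in OL against 16.5 in OPC, and Nid2, which encodes a linker of laminin and collagen IV, had 18.2 in OL against 3.24 in OPC. Dmd, the dystrophin gene, leaned to OPC with 7.86 in OL against 11.1 in OPC (log2 ratio -0.46). Sgcd, also of this list, leaned further, with 3.93 in OL against 7.36 in OPC (-0.76).

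Of 14 genes that make or crosslink collagen, all had a region, 14 with an OL call and 7 with an OPC call, and the median log2 ratio was 0.77, with 5 at 1 or more and 1 at -1 or less. That 1 was P4ha2, a prolyl hydroxylase gene, with 9.08 in OL against 38.9 in OPC (-1.99), more OPC signal than any of the 190 regions. The 7 with an OPC call lie near the share over all names. Plod2, a lysyl hydroxylase gene, had 9.54 in OL against 1.00 in OPC. Of 27 genes of integrin adhesion inside the cell 24 had a region, 24 with an OL call and 21 with an OPC call, at a median of 0.85, with 10 at 1 or more and 0 at -1 or less. The OPC counts of this list and of the matrix partners lie above the share over all names. The genes of these lists also held 4.5 and 4 regions at the median, against 2 over all names, and the part of region number in the counts was not tested. Parvb, the gene of beta-parvin, had 6.00 in OL against 11.9 in OPC, and Dock1, an activator of Rac, had 5.8 in OL against 10.8 in OPC. Tns3, the gene of tensin 3, had 21.2 in OL against 2.65 in OPC, and Ptk2, the gene of focal adhesion kinase, had 12.3 in OL against 6.03 in OPC. Tln1 and Tln2, the genes of talin, which switches integrins on, had 4.39 in OL against 4.79 in OPC and 13.9 in OL against 2.06 in OPC.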

How the data were processed

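Nkx2.2 ChIP-seq libraries of OL and OPC, 1 each, were compared through the deposited table of merged regions, and the input was not used. Per the file headers, the authors joined the intervals called in each library into regions and give, per library, an average and a highest signal, whether it holds a call, and the assigned genes with distance and position. The submitters' processing notes list BWA, MACS 1.4.2 and mm9. How strict the calls were, how the input entered them and how libraries were scaled is not given in the sources used here, and whether starts count from 0 or 1 is not stated. Depth is unknown. Unequal depth would shift every ratio.

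Gene lists, distances and calls were read as deposited, and a region assigned to several genes was counted once per set. The log2 ratio used a pseudocount of 1, which understates weak regions, with no filter on low signal. A gene's highest region is the one with the largest average signal in either library. Distance runs from a region's middle. Intervals of shares are exact (Clopper-Pearson). The ratio was tested on made-up values with known shifts. Named were the collagen IV, laminin and integrin genes (1 item is not reported here and stays in the counts), genes holding each library's 12 strongest regions, those of the 10 largest ratios each way above the median mean signal, and those with a start region. Other genes given with values (Col15a1, Col7a1, Col1a2, Col22a1, Col24a1 and Col8a2 among the members, and those of the partner lists) were chosen after their values were seen. The members, lists and naming rule were chosen with earlier results of these data known. Names were matched to RefSeq (GRCm38.p6) by symbol or synonym, 68 of 68. Python 3.11.15, pandas 2.3.3 and scipy 1.17.1 were used.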

Additional observations from a re-analysis of the deposited data

How the results depend on the processing

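No replicate could be left out and no paired analysis was possible because each state has 1 library. The 64 regions at a log2 ratio of 1 or more became 23 with the median of all regions at 0 and 28 among regions at or above the median mean signal. That count rose to 96 with the highest signal and 72 with a pseudocount of 0.5, and was 46 with a pseudocount of 2. The 13 at -1 or less became 8 with a pseudocount of 2, 21 with the highest signal, 27 with the median of all regions at 0 and 8 above the median mean signal. A pseudocount of 0.5 gave 16 at -1 or less. The median log2 ratio was -0.036 with the median of all regions at 0, and 0.46 to 1.00 under the other 6 settings tried. With calls at or above each library's median signal, 83 regions were called in OL, 38 in OPC and 23 in both. With OL calls held to as many of the strongest as OPC has, 77 were called in OL and 35 in both. Start windows of 500 bp and 2 kb held 12 and 23 regions. Of the 49 named genes, the mean over a gene's regions in place of its highest region turned the sign at 5, to -0.82 at Col4a3bp, 0.83 at Itga1, 0.28 at Itgav, 0.52 at Itga3 and 0.34 at Col5a3. The highest signal turned Itga3 to 0.82 and Col5a3 to 0.14, and scaling to shared regions turned Col19a1 to -0.14, Lama4 to -0.08 and Lamb2 to -0.20. Before log2, the OL over OPC ratio moved by more than 1.5 times at 12 genes with the mean and 12 with the highest signal. Regions above 0 numbered 92, against 152, with the median of all regions at 0. Settings that leave fewer regions lower the counts by construction, and otherwise the cause was not tested.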
